A study of Danio rerio with 12 samples.

Results

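In zebrafish ventricles, 26 genes separated every library of fish that carried the *Tg(hsp70l:nkx2.5-EGFP)* transgene from every library of non-transgenic fish, whether or not the heart had been injured. Genes were selected on these same libraries. A gene was chosen by its values when it reached 2 CPM (its count scaled to a common library total) in at least 4 of 12 libraries and when log2(CPM + 0.5) of all 8 carrier libraries lay at least 1 above the highest, or at least 1 below the lowest, of the 4 non-transgenic libraries. Of 38049 listed genes, 14317 passed the CPM filter, 19 (0.133%) were chosen as higher in carriers and 7 (0.0489%) as lower. The difference between carriers and non-transgenic fish therefore chose these genes, and it is described here without a test.

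Each library was made from RNA of 6 pooled ventricular apices of adult zebrafish hearts, and each of 6 groups had 2 libraries. WT0 and WT7 were non-transgenic wild type, TG0 and TG7 were wild type with *Tg(hsp70l:nkx2.5-EGFP)*, and MT0 and MT7 were *nkx2.5*-/- fish with the same transgene. Groups ending in 0 were uninjured, and those ending in 7 were collected 7 days after the ventricular apex was amputated. All fish had been heat-shocked at 37 °C at 21 somites, which in carriers switched on Nkx2.5 fused to EGFP from the *hsp70l* promoter and rescued the *nkx2.5*-/- embryos (allele vu179). The paper also reports that amputation itself, without heat shock, briefly switched the transgene on in transgenic wild-type adults. By its qPCR the level was back to that of uninjured hearts before day 7. TG and MT fish are called carriers below. The adult fish were 3 to 18 months old and came from crosses with a single transgenic parent, and fish of a library cannot be told apart after pooling. In the paper's methods, the controls for heat shock were non-transgenic siblings treated alike. The labels name no batch and do not say which crosses the fish of a library came from.

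The chosen genes included several with well-known products. Coagulation factor XIII is a transglutaminase that cross-links fibrin at the end of the clotting cascade, and its A chain carries the enzyme activity. FHL2 and myomesin are proteins of the striated muscle sarcomere, CD28 is the co-stimulatory receptor of T cells, and TOX is a nuclear factor of T cell development in mammals. Among the lower genes, KCNK5 is a potassium leak channel, coronins bind actin filaments, and BCL2 proteins restrain or promote apoptosis.

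*nkx2.5* itself, the targeted gene, measured 230 and 255 CPM in WT0, 238 and 238 in TG0, 407 and 371 in MT0, 220 and 193 in WT7, 174 and 185 in TG7, and 264 and 356 in MT7. Carrier and WT ranges overlapped, and reads of the mutant allele and of the transgene can be counted under this name, so these values do not check the labels. *hsp70l*, whose promoter drives the transgene, ranged from 3.93 to 21.8 CPM in WT libraries and from 3.35 to 22.3 CPM in carriers. Library totals lay between 14234818 and 24544150 counts. Markers of 12 cell types were summed by library, and 0 of the 12 sums separated carriers from WT. Some sums were set by few genes, as that of skeletal muscle by *ckma* and *acta1b*, and say little about the other markers. The skeletal muscle gene *mylpfa* reached 22.5 CPM in TG7 replicate 1 and 93.8 in MT7 replicate 2, against at most 1.38 in all other libraries. The pancreas gene *ctrb1* reached 126 CPM in TG0 replicate 2, against at most 35.1 in all others. The part of such tissue was not tested. Of single markers, *myh6*, the atrial myosin heavy chain gene, measured 2.72 to 328 CPM in WT libraries, 391 to 1096 in TG and 571 to 3338 in MT. By in situ hybridization, the paper found this transcript in the ventricle of *nkx2.5*-/- hearts but not in that of either wild-type line. The endothelial genes *fli1a* (75.7 to 99.0 and 101.5 to 137 CPM) and *fli1b* (21.4 to 39.1 and 39.7 to 68.7 CPM) were also higher in all carrier libraries, by less than the rule required. The part of atrial muscle or endothelium in the 26 genes was not tested. Cardiomyocyte markers summed to between 94437 and 122913 CPM in WT libraries and between 61196 and 123476 CPM in carriers.

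Many of the higher genes had low counts without the transgene. Of the 19, 14 stayed under 2 CPM in every WT library, 7 had at most 3 counts in each WT library, and 4 had 0 counts in all 4. Others under 2 CPM were detected in WT, such as *cd28* with 82 counts and *f13a1a.1* with 38 counts over the 4 libraries. Median CPM over the carrier libraries ran from 2.52 to 353. The gap, the log2 distance between the nearest carrier and WT libraries, ran from 1.03 to 4.27 in the higher genes. It was narrower in the lower genes, from 1.06 to 1.27. All 7 lower genes averaged under 2 CPM in carriers, and their medians over WT libraries ran from 2.64 to 13.3 CPM. Low values on the far side were partly built in by the rule. A gene under 2 CPM in every WT library passed the CPM filter through carriers alone, where 4 of 8 libraries were enough. A gene low in carriers needed most or all of the 4 WT libraries, so higher and lower genes were not filtered alike. In bulk samples, fewer cells of a type and less RNA per cell cannot be told apart.

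**Figure D1:**
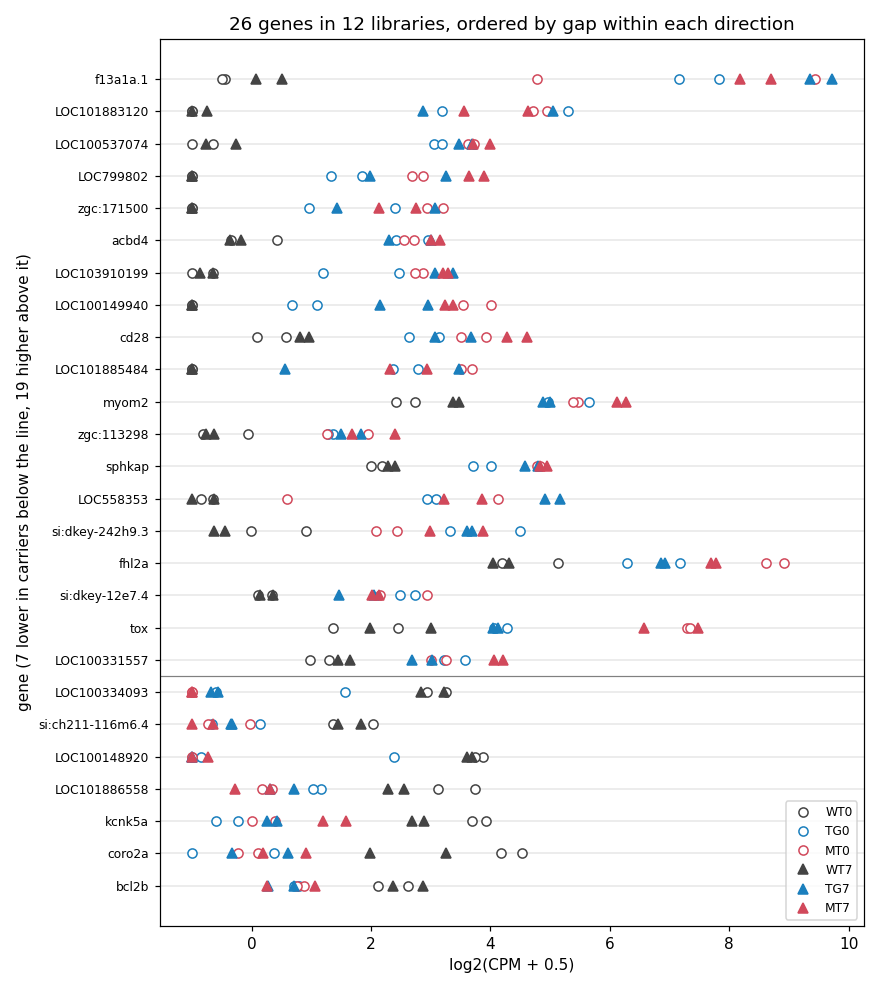
Each row is 1 of the 26 genes and each point 1 library, placed by log2(CPM + 0.5). Open circles are uninjured groups, filled triangles injured groups, and colours mark WT, TG and MT. In the upper 19 rows every carrier point lies right of every WT point, and in the lower 7 rows left of it. The widest empty space is that of *f13a1a.1*, with a gap of 4.27.

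The widest gap belonged to *f13a1a.1*, a factor XIII A chain gene. It measured 0.232 and 0.211 CPM in WT0, 0.923 and 0.554 in WT7, 227 and 142 in TG0, 693 and 27.0 in MT0, 838 and 654 in TG7, and 290.1 and 416 in MT7. All WT libraries were below 1 CPM, and the lowest carrier library was MT0 replicate 2. Mean CPM was 856-fold higher in carriers than in WT, on 38 counts in the 4 WT libraries together. Next to it in the gene list stands *LOC558353*, which the RefSeq gene table names *f13a1a.2*, a second gene of the same chain. It measured 0.0579 and 0.141 CPM in WT0, 0.146 and 0 in WT7, 8.01 and 7.13 in TG0, 17.0 and 1.01 in MT0, 35.4 and 29.7 in TG7, and 8.89 and 14.1 in MT7. Libraries that were high or low for *f13a1a.1* were so for *LOC558353* too, and the ratio of *f13a1a.1* to *LOC558353* CPM, not scaled for length, lay between 19.9 and 40.8 over the 8 carrier libraries. The copies may share reads, so the level of the one with fewer counts is uncertain. A further paralog, *f13a1b*, did not separate the lines, with 12.05 to 52.4 CPM in WT libraries and 16.3 to 89.3 CPM in carriers.

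**Figure D2:**
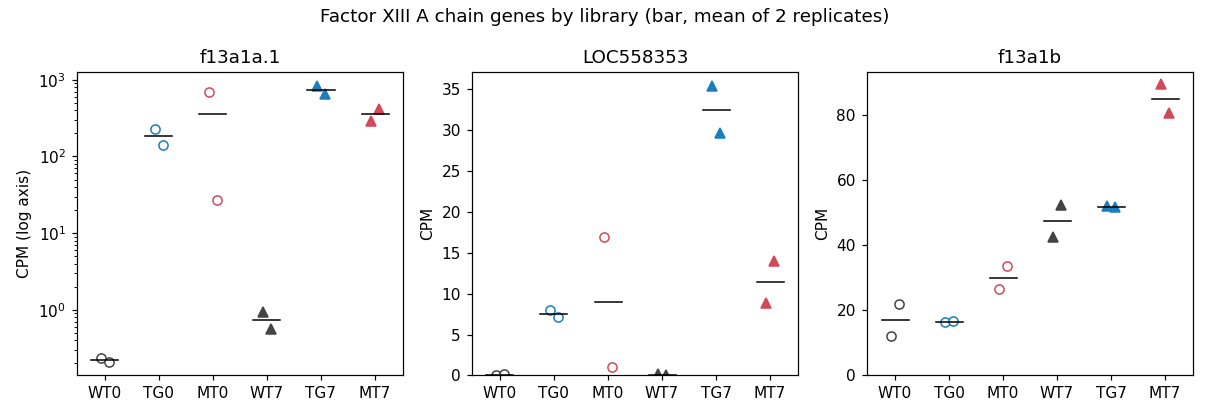
CPM of 3 factor XIII A chain genes in each of 12 libraries by group, on a log axis for *f13a1a.1* and on linear axes from 0 for the other two; bars are means of 2 replicates. *f13a1a.1* stays below 1 CPM in WT0 and WT7 and above 26 CPM in every carrier library, *LOC558353* is at most 0.146 CPM in WT and at least 1.01 CPM in carriers, and *f13a1b* overlaps between the lines.

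Fibrinogen chains, the substrate chains that factor XIII cross-links, were set beside it after the values had been seen. *fga* measured 0 and 0.211 CPM in WT0, 0.194 and 0 in WT7, 0 and 0.0440 in TG0, 0.767 and 0.723 in MT0, 3.17 and 2.61 in TG7, and 2.08 and 13.1 in MT7. It overlapped between carriers and WT without injury, and was higher in the 4 injured carrier libraries than in both WT7 libraries. *fgb* and *fgg* likewise reached 13.6 and 9.04 CPM in MT7 replicate 2, against at most 0.0924 CPM in WT7 libraries. *apoa2*, a liver product, measured 7.77 and 6.27 CPM in TG7, 1.38 and 44.8 in MT7, and at most 0.703 in the other 8 libraries. The part of liver transcripts in the fibrinogen values was not tested.

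Genes of the sarcomere and of protein kinase signalling were also among the higher genes. *fhl2a*, for a LIM-only scaffold protein found at sarcomeres in mammals, measured 17.8 and 34.4 CPM in WT0, 16.1 and 19.4 in WT7, 77.6 and 143 in TG0, 391 and 485 in MT0, 121 and 116 in TG7, and 208 and 218 in MT7. Its carrier mean was 10.03-fold the WT mean, and MT libraries lay above all TG libraries. *myom2*, for a myomesin of the M-band that ties thick filaments together, measured 4.87 and 6.18 CPM in WT0, 9.86 and 10.7 in WT7, 30.7 and 49.5 in TG0, 43.6 and 41.2 in MT0, 31.3 and 29.0 in TG7, and 76.7 and 69.2 in MT7. For *myom2* the ratio of carrier to WT means was 5.88. *sphkap*, for an anchoring protein of protein kinase A, measured 4.06 and 3.51 CPM in WT0, 4.81 and 4.39 in WT7, 12.6 and 15.7 in TG0, 26.9 and 28.0 in MT0, 27.4 and 23.5 in TG7, and 30.5 and 28.0 in MT7, a ratio of means of 5.75.

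Paralogs of these genes did not share the pattern. *fhl2b* measured 22.1 to 74.3 CPM in WT libraries and 6.44 to 33.0 in carriers, so that its ranges overlapped and its WT mean was the greater in uninjured fish. *fhl1a* also overlapped, with 1225 to 1395 CPM in WT and 1081 to 3169 CPM in carriers. *myom1b* went the opposite way to *myom2*, with 1982 to 2958 CPM in WT libraries and 666 to 1790 CPM in carriers, a gap of 0.15 that was too small for the rule. *myom1a* overlapped.

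*tox* and *cd28* were the members with known roles in T cells. *tox* measured 2.09 and 4.99 CPM in WT0, 3.45 and 7.57 in WT7, 16.1 and 18.97 in TG0, 156 and 163 in MT0, 16.1 and 16.9 in TG7, and 94.5 and 178 in MT7. TG libraries of *tox* lay close above WT and MT libraries far above both, for a ratio of carrier to WT means of 18.2. *cd28* measured 0.985 and 0.562 CPM in WT0, 1.46 and 1.25 in WT7, 5.72 and 8.28 in TG0, 10.8 and 14.7 in MT0, 7.89 and 12.3 in TG7, and 23.9 and 18.9 in MT7, a ratio of 12.1.

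Lymphocyte markers did not separate the lines in the same way. The sum of 6 lymphocyte markers in the files (*cd8a*, *lck*, *zap70*, *cd79a*, *cd79b* and *rag1*) ranged from 19.3 to 55.8 CPM in WT libraries and from 28.9 to 74.6 CPM in carriers. Most of it came from the B cell gene *cd79a*, with 15.8 to 46.9 CPM in WT and 26.1 to 64.5 CPM in carriers. The sum therefore says little about T cells. The T cell kinase gene *lck* measured 1.51 to 2.82 CPM in WT and 0.926 to 4.10 CPM in carriers, and *cd8a*, a receptor of cytotoxic T cells, stayed at or below 1.81 CPM in all libraries. *tox2* and *tox3*, paralogs of *tox*, overlapped between carriers and WT. The part of lymphocytes in the values of *tox* and *cd28* was not tested.

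*acbd4* was the other higher gene with a known domain. Its product binds acyl-CoA, and in mammals it links peroxisomes to the endoplasmic reticulum. It measured 0.290 and 0.843 CPM in WT0, 0.389 and 0.277 in WT7, 7.24 and 4.84 in TG0, 5.37 and 6.12 in MT0, 7.53 and 4.44 in TG7, and 8.41 and 7.56 in MT7, a ratio of means of 14.3. Carrier libraries of *acbd4* thus lay between 4.44 and 8.41 CPM, and its paralogs *acbd3*, *acbd5a*, *acbd6* and *acbd7* overlapped between the lines.

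Provisional names (LOC, si: or zgc:) were carried by 16 of the 26 genes (61.5%), 12 of the higher and 4 of the lower, against 22.8% of the genes that passed the filter. The RefSeq gene table held 18 of the 26. It gives *LOC101883120* as *si:dkey-19a16.7*, *LOC100149940* as *si:ch211-209l18.4* and *LOC799802* as *si:ch211-214b16.2*.

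Several provisional genes had no or almost no reads in WT libraries. *LOC101883120* had 2 counts in all 4 WT libraries and 8.66 and 38.7 CPM in TG0, 25.6 and 30.3 in MT0, 32.5 and 6.80 in TG7, and 11.3 and 24.4 in MT7. Its counts, pooled and divided by the pooled library totals, were 818-fold higher in carriers than in WT. The exact 95% interval, from 226 to 6760, covers counting error only. *LOC100149940*, *LOC101885484*, *LOC799802* and *zgc:171500* had 0 counts in every WT library, and against a floor of 3 counts over the 4 libraries their carrier means were at least 183-fold, 177-fold, 174-fold and 130.4-fold higher. *LOC100537074* (80.3-fold) and *LOC103910199* (84.9-fold) had 11 and 6 counts in the WT libraries together. The spread between carriers was wide in some of these genes. *LOC101885484* measured 4.68 and 6.38 CPM in TG0, 10.9 and 12.5 in MT0, 10.6 and 0.978 in TG7, and 7.14 and 4.52 in MT7. *LOC799802* measured 3.10 and 2.03 CPM in TG0, 5.93 and 6.84 in MT0, 3.47 and 9.05 in TG7, and 14.4 and 11.9 in MT7. Other higher provisional genes were *si:dkey-242h9.3* (19.03-fold), *zgc:113298* (14.4-fold), *si:dkey-12e7.4* (6.55-fold) and *LOC100331557* (5.10-fold). Single WT libraries set some of these ratios. Without WT0 replicate 1 they became 37.1 for *si:dkey-242h9.3* and 26.9 for *zgc:113298*, and without WT7 replicate 1 that of *LOC100537074* became 148.

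Some chosen genes stood close together in the deposited gene list. Each member has a nearest neighbour that passed the filter on either side, and 8 of these 52 places were held by members. Adjacent members were counted from both sides. Of the 14317 genes that passed the filter, 26 were members. Consecutive matched genes of the list lie on the same chromosome of the RefSeq table in 96.8% of cases. Whether the list follows gene order within a chromosome was not checked. A run of 32 consecutive listed genes, from *zgc:113298* to *zgc:171500*, held 6 genes that passed the filter, and 4 of them were members (*zgc:113298*, *LOC101883120*, *LOC100149940* and *zgc:171500*). The run was cut to begin and end at members. Without the CPM filter and at any gap, 8 of the 32 genes separated carriers from WT, the 4 members among them. Of the others, *zgc:172133*, *LOC100148497* and *LOC100333939* did not pass the filter and had gaps of 0.20, 0.17 and 0.13. The share of all listed genes without the filter was not computed, so nothing is read from this count. *LOC100006656*, between the last 2 of these members, had 0 to 0.194 CPM in WT libraries and 0.352 to 5.98 CPM in carriers. The gene listed just after *zgc:171500*, *LOC100329262*, went the opposite way, with 3.72 to 4.34 CPM in WT and 0.358 to 1.80 CPM in carriers. Shared reads between the provisional genes of this run cannot be told from the counts.

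**Figure D3:**
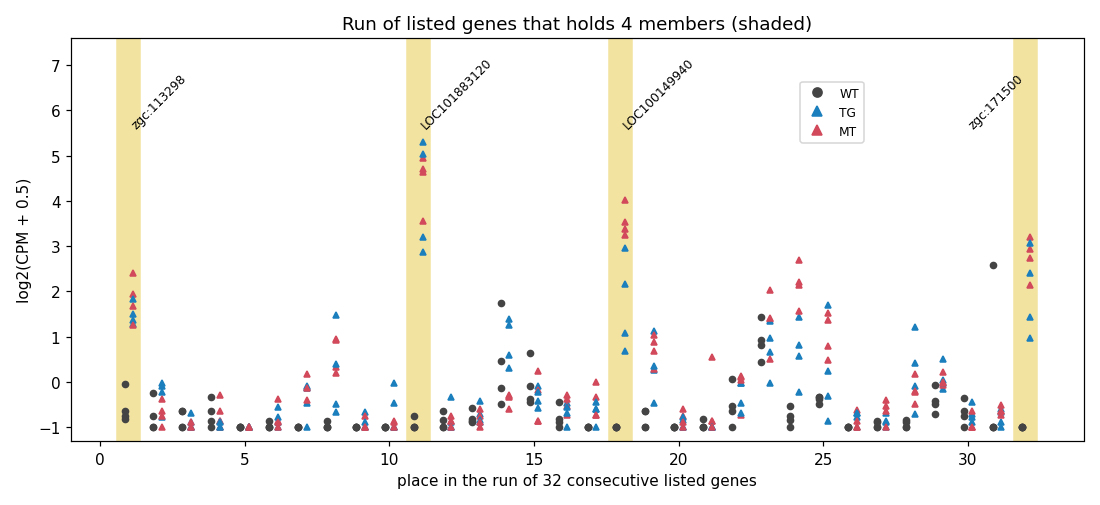
Points are libraries, placed by log2(CPM + 0.5), for 32 consecutive genes of the deposited list, with WT as circles and carriers (TG and MT) as triangles. The 4 shaded members have 0 to 14 counts over the 4 WT libraries together and lie higher in every carrier library, while most genes between them are near 0 in all libraries.

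Over all members, 44 nearest neighbours that passed the filter were not themselves members. Of these, 9 (20.5%) separated carriers from WT at some gap, against 4.25% of all genes that passed the filter, and 7 of the 9 did so in the direction of the member beside them. This share was not tested. Neighbours higher in carriers included *LOC568460* beside *LOC100331557*, with 2.72 to 6.51 CPM in WT and 12.4 to 36.3 CPM in carriers, *fam110b* near *tox*, with 1.62 to 5.87 and 7.31 to 22.2 CPM, and *raph1* near *cd28*, with 13.1 to 25.01 and 27.9 to 49.3 CPM. *LOC402866* beside *si:ch211-116m6.4* was lower in carriers, with 16.6 to 31.5 CPM in WT and 3.35 to 8.39 CPM in carriers. Against the direction of the member went *fars2* near *f13a1a.1*, with 10.3 to 12.8 CPM in WT and 4.37 to 9.07 CPM in carriers, and *LOC100329262* beside *zgc:171500*. By contrast, the nearest neighbours of *acbd4*, *coro2a*, *kcnk5a*, *bcl2b*, *fhl2a* and several other members overlapped between the lines.

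A second cluster of the list held lower genes. *LOC100334093* had 124, 129, 137 and 192 counts in the WT libraries, 3 and 56 in TG0, 3 and 3 in TG7, and 0 in all 4 MT libraries. *LOC100148920*, which follows 2 places after it, had 183 to 269 counts in WT libraries, 1 and 108 in TG0, 0 and 0 in TG7, 0 and 0 in MT0, and 2 and 0 in MT7. Near it stands *zgc:92184*, which had 29.5 to 39.1 CPM in WT libraries, 0.436 and 20.3 CPM in TG0, and at most 0.959 CPM in the other 6 carrier libraries. TG0 replicate 2 was the only carrier library with more than 3 counts of either LOC gene, and it was also the highest carrier library of *zgc:92184*. The gap of *zgc:92184*, 0.53, left it outside the rule. *micall1*, listed between the LOC genes, overlapped between carriers and WT.

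The lower genes with known products were *coro2a*, *kcnk5a* and *bcl2b*. *coro2a*, for a coronin, measured 22.7 and 17.6 CPM in WT0, 3.45 and 9.01 in WT7, 0 and 0.792 in TG0, 0.358 and 0.578 in MT0, 0.299 and 1.02 in TG7, and 1.38 and 0.645 in MT7. Its WT mean was 20.8-fold the carrier mean, and WT7 libraries were below both WT0 libraries. *kcnk5a* measured 12.5 and 14.7 CPM in WT0, 5.97 and 6.93 in WT7, 0.163 and 0.352 in TG0, 0.511 and 0.819 in MT0, 0.837 and 0.693 in TG7, and 2.503 and 1.80 in MT7, a ratio of 10.4. *bcl2b*, of the BCL2 family, measured 5.68 and 3.86 CPM in WT0, 6.85 and 4.66 in WT7, 1.14 and 1.23 in TG0, 1.33 and 1.205 in MT0, 0.717 and 1.14 in TG7, and 1.60 and 0.692 in MT7, a ratio of 4.65. Carrier libraries of *bcl2b* lay between 0.692 and 1.60 CPM. Paralogs of these genes (*kcnk5b*, *bcl2a*, *coro2ba* and *coro2bb*) overlapped between carriers and WT. *LOC101886558* (8.09-fold) and *si:ch211-116m6.4* (10.7-fold) were the other lower members.

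The threshold passed between genes of like behaviour. Just inside it were *LOC100331557*, *tox* and *si:dkey-12e7.4* among the higher genes, with gaps of 1.03, 1.04 and 1.12, and *bcl2b*, *coro2a* and *kcnk5a* among the lower, with 1.06, 1.07 and 1.11. Just outside were *LOC101884877*, *scn1ba* and *emilin2b*, with 0.95, 0.94 and 0.91, and *LOC402866*, *LOC100329262* and *LOC103910209*, with 0.95, 0.88 and 0.85. At any gap above 0, 309 genes (2.16% of those passing the filter) lay above WT in all carrier libraries and 300 (2.10%) below.

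The rule put TG and MT libraries on one side and did not use the order between them. It did require both to clear WT, which leaves out genes with TG or MT near WT. The shares and the median below are therefore a description, and nothing is read from them against all genes. The order was examined with the quasi-likelihood F-test of edgeR on the counts. P-values were adjusted by Benjamini-Hochberg (FDR) over the 19014 genes tested. A gene was called when its absolute log2 fold change exceeded 0.5 with an FDR below 0.05. In MT relative to TG, averaged over uninjured and injured hearts, 5 of the 26 genes were called higher (19.2%, against 9.21% of all genes tested) and 3 lower (11.5%, against 8.68%). At an unadjusted p under 0.05, the same test gave 8 higher (18.8% of all genes) and 3 lower (17.9%). The median log2 fold change of the 24 genes with counts in every TG and MT group was 0.25, against 0.01 over all genes. P-values measure the spread between pools of hearts.

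*tox* rose in MT by 2.92 on the log2 scale (SE 0.29, FDR = 0.00016), *LOC100149940* by 1.82 (SE 0.24, FDR = 0.0016) and *fhl2a* by 1.21 (SE 0.21, FDR = 0.0028). In these 3 genes every MT library lay above every TG library, which describes the same values that were tested. The share of all genes with that order was not computed. *kcnk5a*, although lower in carriers than in WT, was higher in MT than in TG by 1.19 (SE 0.25, FDR = 0.0084). The calls of these 4 genes were kept in all 18 alternatives tried. *cd28* rose by 0.76 (SE 0.21, FDR = 0.025), a call lost without TG0 replicate 1, MT0 replicate 2, TG7 replicate 1 or MT7 replicate 1, with FDR from 0.07 to 0.11 and log2 values from 0.60 to 0.72.

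Among genes called lower in MT, *LOC101886558* fell by 1.22 (SE 0.32, FDR = 0.021) and *si:dkey-242h9.3* by 1.19 (SE 0.35, FDR = 0.033). Without injury, *si:dkey-242h9.3* reached at most 4.91 CPM in MT0, below its lowest TG0 library at 9.55 CPM. Injured libraries of this gene overlapped, since its TG7 values (11.7 to 12.4 CPM) fell inside the MT7 range (7.40 to 14.2 CPM). Whether its MT difference changed with injury was not tested. The call of *LOC101886558* was lost without TG0 replicate 1, MT0 replicate 2, TG7 replicate 1 or MT7 replicate 2 and with limma-voom (FDR 0.059 to 0.086). That of *si:dkey-242h9.3* was lost in 8 of 12 leave-one-out fits, those without TG0 replicate 1 and without any MT0, WT7 or TG7 library or MT7 replicate 1 (FDR 0.055 to 0.17). *LOC100334093* had 65 counts in the TG libraries and 0 in MT, at least 21.3-fold lower against a floor of 3 counts over the MT libraries. Without TG0 replicate 2, which held 56 of the 65 counts, the bound was at least 4.06-fold. Its call was lost without MT0 replicate 2, MT7 replicate 1 or either TG7 replicate (FDR 0.051 to 0.085). In the fit of only TG and MT libraries the gene did not pass the filter on low counts and was not tested.

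**Figure D4:**
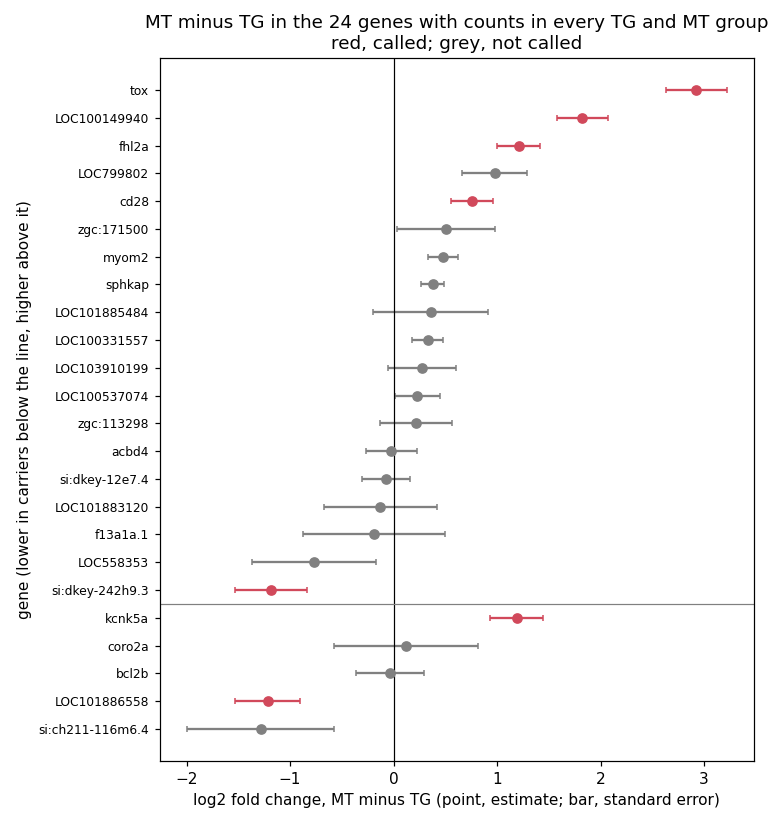
Points give the log2 fold change of MT minus TG and bars its standard error for the 24 genes with counts in every TG and MT group, with called genes in red. *tox* stands highest at 2.92, and *kcnk5a* is the only called gene of the lower set that is higher in MT than in TG.

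The remaining genes did not pass. *f13a1a.1* differed by -0.19 (SE 0.68, FDR = 0.87), *LOC558353* by -0.77 (SE 0.60, FDR = 0.39) and *acbd4* by -0.02 (SE 0.25, FDR = 0.96). The factor XIII values depended on MT0 replicate 1, without which *f13a1a.1* was called lower in MT at -2.18 (SE 0.24, FDR = 0.00082) and *LOC558353* at -2.45 (SE 0.34, FDR = 0.0021). *myom2* at 0.48 (FDR = 0.038) and *sphkap* at 0.38 (FDR = 0.039) were under the fold threshold, and *myom2* passed it without TG0 replicate 2 (0.68) or MT0 replicate 2 (0.55). *LOC799802*, at 0.98 (SE 0.31, FDR = 0.057), was called in 5 alternatives, among them without TG7 replicate 2 (1.43, FDR = 0.015). *LOC101885484*, at 0.36 (SE 0.56, FDR = 0.68), was called without TG7 replicate 1 (1.59, FDR = 0.012).

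The effect of injury was tested next. The rule kept injured and uninjured libraries of a line on the same side of WT, which tends to leave out genes that change strongly with injury, so the shares of called genes are a description and nothing is read from them. A group was at 0 counts in 7 of the 26 genes, and the calls below come from the 19 with an estimate. Averaged over the 3 genotypes, 0 of the 26 genes were called higher 7 days after amputation, against 15.7% of all genes tested, and 3 were called lower (11.5%, against 9.18%). At an unadjusted p under 0.05, edgeR gave 2 higher (23.7% of all genes) and 3 lower (22.9%). With the FDR and fold thresholds of a call, limma-voom and DESeq2 called 0 higher. *LOC101886558* fell by 1.02 on the log2 scale (SE 0.24, FDR = 0.0093) and *fhl2a* by 0.72 (SE 0.17, FDR = 0.0089), both kept in all 17 alternatives. The *fhl2a* mean fell from 438 CPM in MT0 to 213 in MT7 and from 26.1 in WT0 to 17.8 in WT7. In TG it did not fall (110 CPM in TG0 and 118 in TG7). *si:dkey-12e7.4* fell by 0.70 (SE 0.21, FDR = 0.025), a call lost in 7 of the 17 alternatives (FDR 0.053 to 0.08), namely with limma-voom and without WT0 replicate 2, TG0 replicate 1, MT0 replicate 2, WT7 replicate 2, TG7 replicate 1 or MT7 replicate 1. Its mean fell from 5.63 CPM in TG0 to 2.97 in TG7 and from 5.56 in MT0 to 3.72 in MT7. In WT it did not fall (0.676 CPM in WT0 and 0.689 in WT7).

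*f13a1a.1* had an injury estimate of 0.96 (SE 0.95, FDR = 0.46), with TG7 libraries above TG0 libraries and MT7 libraries between those of MT0. Without MT0 replicate 1 it was called higher after injury at 2.29 (SE 0.28, FDR = 0.00097). Leaving out 1 library also gave a call of higher after injury for *kcnk5a* without TG0 replicate 2, at 0.70. *LOC100537074* was called higher without WT0 replicate 2. It had 0 CPM in WT0 replicate 1, so that fit left WT0 at 0 counts and its fold change is not printed. *cd28* had an estimate of 0.45 (SE 0.19, FDR = 0.093) and *tox* of -0.10 (SE 0.24, FDR = 0.77).

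Whether the difference between carriers and WT changed with injury was fitted as an interaction. The rule had required that difference to reach 1 in the nearest libraries of both states, so the calls are not independent of how the genes were chosen, and the shares are a description. Again 7 of the 26 genes had a group at 0 counts and no usable estimate. Of the 26 genes, 1 was called higher (1.04% of all genes tested) and 0 lower (1.77%). At an unadjusted p under 0.05, edgeR gave 3 higher (10.8% of all genes) and 1 lower (12%). With the FDR and fold thresholds of a call, limma-voom and DESeq2 called 0 lower. The called gene was *kcnk5a*, with an interaction of 2.60 on the log2 scale (SE 0.37, FDR = 0.011). Its mean in WT was 13.6 ± 1.58 CPM without injury and 6.45 ± 0.674 CPM after it (SD, n = 2), while TG went from 0.258 ± 0.134 to 0.765 ± 0.102 CPM and MT from 0.665 ± 0.218 to 2.15 ± 0.498 CPM. Both WT7 libraries were below both WT0 libraries, and both libraries of TG7 and of MT7 were above those of the matching uninjured group. The call was lost without WT7 replicate 1 or WT7 replicate 2 (FDR 0.089 to 0.1), with log2 values of 2.53 and 2.66.

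**Figure D5:**
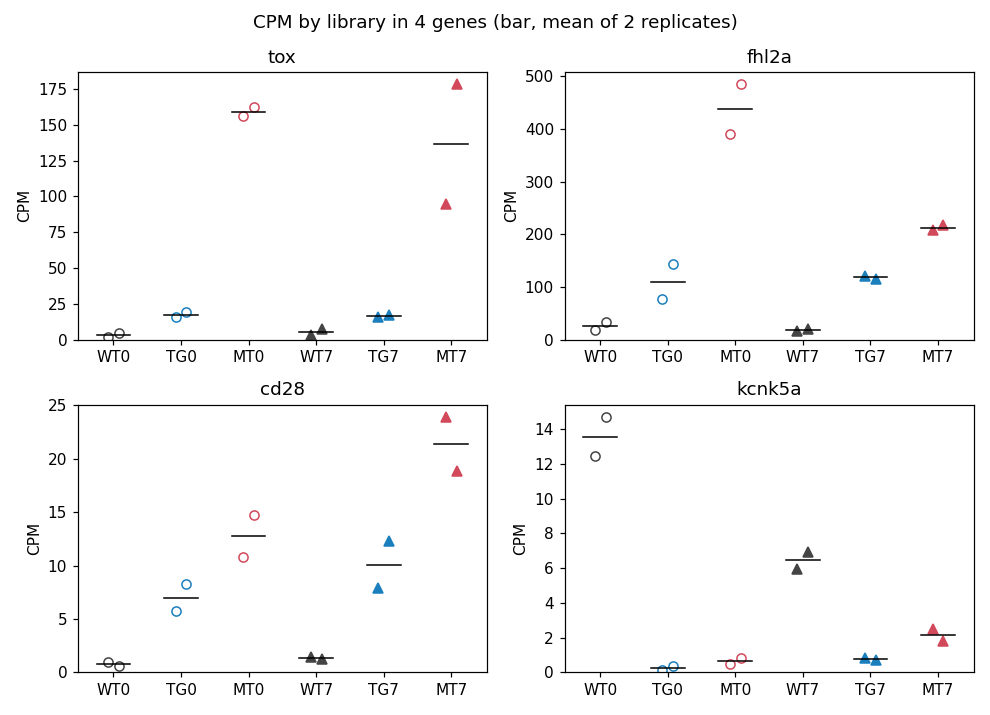
CPM of *tox*, *fhl2a*, *cd28* and *kcnk5a* in each library by group, with bars for the mean of 2 replicates and axes from 0. MT libraries of *tox* lie between 94.5 and 178 CPM and those of TG between 16.1 and 18.97, while *kcnk5a* has a mean of 13.6 CPM in WT0 and of 6.45 CPM in WT7, and at most 2.503 CPM in carriers.

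Other interaction estimates did not pass. *coro2a*, with the same order of levels as *kcnk5a*, had 2.55 (SE 0.98, FDR = 0.16), and *si:dkey-242h9.3* had 2.74 (SE 0.91, FDR = 0.12). The latter was called with DESeq2 at 2.81 (adjusted p = 0.021) and without WT0 replicate 2 at 3.30 (FDR = 0.046). *myom2* had -0.79 (SE 0.27, FDR = 0.13), with differences between carriers and WT of 2.72 in TG0, 2.84 in MT0, 1.51 in TG7 and 2.77 in MT7 on the log2(CPM + 0.5) scale. *fhl2a* had 0.00 (SE 0.34, FDR = 1).

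None of the 26 genes belonged to the gene lists set beside them. All fish, WT included, had been heat-shocked as embryos, so heat shock genes cannot tell carriers from WT through that treatment. Of the 24 heat shock genes that passed the filter, 0 separated carriers from WT. Their median difference of carriers from WT was 0.00 on the log2 scale, against 0.09 over all genes that passed the filter. Of 13 cardiac transcription factors, 1 was higher in all carrier libraries at some gap, and of 14 antigen presentation and immunoproteasome genes likewise 1. Among 28 circadian clock genes, 4 were higher and 1 was lower, with a median of -0.15. Over all genes that passed the filter, these shares were 2.16% higher and 2.10% lower. Haemoglobin and red blood cell genes had the greatest median difference of the lists, 0.87, although 0 of the 6 separated the lines. Of 11 glutathione S-transferases, 32 cytochrome P450 genes and 27 tripartite motif genes, 2 each were higher. Among 75 zinc finger genes, 2 were higher and 1 was lower, and among 192 solute carriers 1 was higher and 5 were lower. Of 15 interferon response genes, 12 complement genes and 2 NLR genes, 0 separated the lines.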

How the data were processed

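Total RNA from 6 pooled ventricular apices per library was sequenced by the authors as single-end reads of 100 bases (TruSeq RNA v2). The authors aligned reads to GRCz10 with STAR (version 2.5.2), assigned them to genes by featureCounts (version 1.5.0-p3), and the deposited values are raw counts, not normalized. The methods name an Ensembl release of GRCz10, whereas the gene list holds RefSeq-style LOC names, so the annotation counted is not settled, and with it what the list order stands for. The strand setting is not given in the sources used here, so overlapping and antisense genes cannot be told apart, and reads of near-identical copies may have been split or dropped. Groups and replicate numbers came from the sample titles. Replicates of a group differed beyond counting noise and were counted separately.

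CPM were counts divided by the library total. The rule used a pseudocount of 0.5. Counts were tested in edgeR (version 4.0.16, R version 4.3.3) with TMM, after filterByExpr had removed weak genes (min.count 10, min.total.count 15). One quasi-likelihood model fitted 6 group means, from which 3 contrasts were taken. SE was obtained from the size of the log2 fold change and the root of F. For genes with a group at 0 counts, no model fold change is printed, although a call may rest on it (*LOC100334093*, and *LOC100537074* without WT0 replicate 2). The model and the rule were tested on simulated data. Ratios against WT libraries with 0 counts used a floor of 3 counts over the 4 libraries and, like the 95% intervals, cover counting error only.

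Genes, lists and tests were chosen with earlier results of these data known, and paralogs, fibrinogen chains, neighbours and ratios without 1 library after the members were seen. Named genes were those with the widest and narrowest gaps, the highest mean CPM, the smallest p among called genes, or a place beside another member. Gene names were matched to the RefSeq table of GRCz12tu, used for names and chromosomes only. Neighbours were taken from the order of the deposited list. Alternatives were DESeq2 (version 1.42.0), limma-voom (version 3.58.1), RLE size factors, no filter, no fold threshold, a replicate block, only TG and MT libraries, each library left out, and other pseudocounts, filters, scalings and gaps in the rule.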

Additional observations from a re-analysis of the deposited data

Results flagged for a closer look

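The interaction of carrier state with injury was called in *kcnk5a*, at 2.60 on the log2 scale (SE 0.37, FDR = 0.011, edgeR, Benjamini-Hochberg). This gene was singled out because the test of the interaction itself passed. It had been chosen on the difference between carriers and WT in these same libraries, so the call is not independent of that choice. The call was lost without WT7 replicate 1 or WT7 replicate 2, at log2 values of 2.53 and 2.66. On the log2(CPM + 0.5) scale, TG0 differed from WT0 by -4.22, MT0 from WT0 by -3.60, TG7 from WT7 by -2.46 and MT7 from WT7 by -1.40. The carrier values rested on few counts, with 11 in the TG0 libraries together and 27 in MT0.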

How the results depend on the processing

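The number of chosen genes followed the rule's settings. The 19 higher genes became 12 with a pseudocount of 1, 11 with a mean CPM of at least 5, 53 with a gap of 0.5 and 4 with a gap of 2. With each library left out there were 19 to 28, in every case with all 19 among them. Leaving out a library can only keep or widen a gap, so a member could be lost only through the CPM filter. That all 19 were kept therefore says little about stability. The 7 lower genes became 2, 0, 32 and 0 with that pseudocount, that mean CPM and those gaps, and 3 to 12 with each library left out. Without TG0 replicate 2 there were 12, and without any single WT library *coro2a*, *bcl2b*, *si:ch211-116m6.4* and *LOC101886558* dropped out, because their carrier libraries could not bring 4 libraries to 2 CPM. TMM-scaled CPM gave 19 and 7, of which 18 and 6 were shared.

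With each library left out, calls in MT relative to TG numbered 4 to 6 higher and 0 to 4 lower, those of the injury effect 0 to 1 higher and 2 to 3 lower, and those of the interaction 0 to 2 higher and 0 to 0 lower. DESeq2 called 2 genes higher in the interaction. No called estimate changed sign under any alternative. The labels link same-numbered replicates by nothing but the number. Their deviations correlated between -0.12 and 0.12 over 15 pairs of groups, which cannot settle whether they shared a batch. With the number as a replicate block, 5 genes were called higher and 3 lower in MT relative to TG, 0 and 3 in the injury effect, and 1 and 0 in the interaction. Low depth limits the lower genes, since 3 counts corresponded to 0.122 to 0.211 CPM.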
